A study of Mus musculus with 2 samples.

Results

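The genes described here are 47 collagens and other extracellular matrix genes, listed by name and followed across the annotated cell types and the graft groups of a single-cell RNA-Seq experiment on mouse heart transplants. All 47 were among the 22337 gene symbols of the matrix, and all 47 were above 0 in some cell. The experiment compared cell isolates from heart allografts harvested at postoperative day (POD) 14 after heterotopic transplantation into C57BL/6 (B6) recipients. Every donor heart came from a Bm12 mouse, a strain that differs from B6 at a class II locus of the MHC, and this mismatch was the same in both groups. Hearts 1, 2 and 3 were labelled IL-33+ (BM12 WT, *Il33*+/+ donors) and hearts 4, 5 and 6 were labelled IL-33- (BM12 IL33 KO, *Il33*-/- donors), and the deletion was in the donor heart only, while the recipients that supply most infiltrating leukocytes could make IL-33. The cells of each heart carried a hashtag antibody of their own and were pooled into 1 library. The isolation used a density gradient meant for immune cells, and stromal cells, which produce most matrix, were present as far as that step retained them. The heart was the unit of replication, with 3 hearts per group. The ages of the mice were not given in the sources used here.

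The extracellular matrix is the network of secreted proteins that surrounds cells. Fibrillar collagens form the tensile fibers of scar and normal stroma, elastic fibers give recoil, proteoglycans regulate fibril assembly and hydration, and basement membranes, built on type IV collagen, laminins, nidogen and perlecan, underlie endothelium and wrap muscle cells. In the heart, fibroblasts are the main producers of interstitial matrix, endothelial and mural cells contribute basement membrane, and matrix deposition is a feature of chronic rejection.

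Of 4441 cells, 375 were annotated fibroblasts. Hearts 1, 2 and 3 held 34, 6 and 270 of them, and hearts 4, 5 and 6 held 31, 4 and 30, so heart 3 supplied 72% and hearts 2 and 5 rest on very few cells. Total depth ranged from 908139 to 7012940 unique molecular identifiers (UMIs) per heart, with 1500 to 14977 UMIs per cell. The annotated fibroblasts carried fibroblast markers that are not matrix members (31057 CPM, which is UMIs scaled to a fixed total per cell, summed over 13 genes) and little of 3 pan-leukocyte markers (424 CPM). *Il33*, the deleted gene, was at 24.3, 0 and 50.7 CPM in fibroblasts of hearts 1, 2 and 3 and at 32.6, 73.8 and 16.1 CPM in hearts 4, 5 and 6. The transcript therefore did not separate the labels, and directions below are between hearts as labelled.

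Among the cells recovered, most matrix genes were highest in the annotated fibroblasts. The other 13 annotated types were all leukocytes, so endothelial, mural and muscle cells were not compared as types. In the cells annotated fibroblasts, 44 of 47 members had their highest mean level of the 14 annotated types, and 38 were at least 10-fold above each of the other 13 types. Together the members made up 5.08% of fibroblast transcripts (50770 CPM), against 582 to 3556 CPM in the other types, and 83.4% of all 153578 member UMIs were in fibroblasts. The types were annotated from expression, so these levels are a description and were not tested. The share of UMIs also depends on how many cells of each type were recovered. The method counts 1 UMI per transcript from the 3′ end, so a CPM is not scaled to gene length. Weighting hearts equally gave 45 members highest in fibroblasts, with *Vcan* added, and leaving out heart 3 gave 44.

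**Figure D1:**
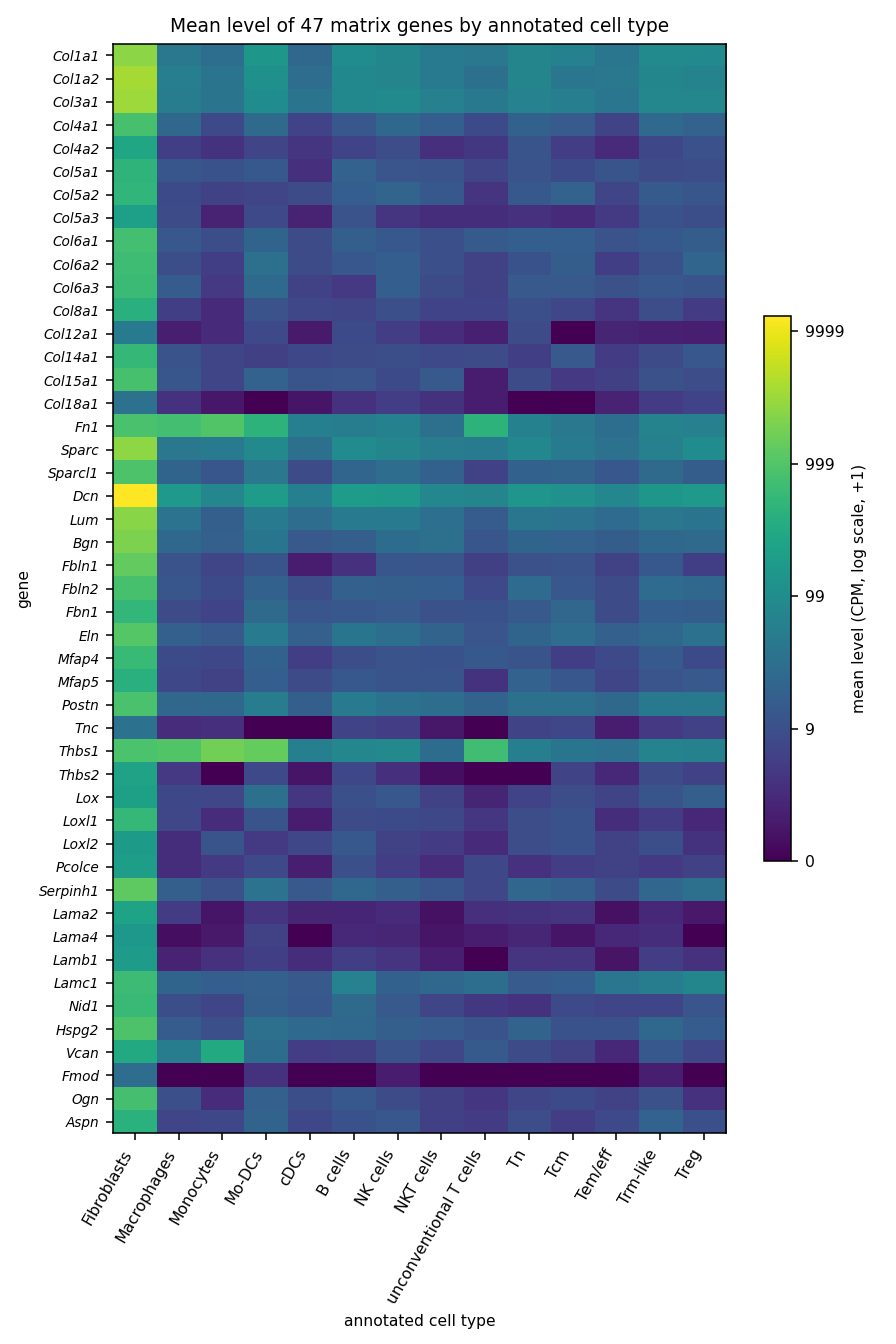
Mean level over cells (CPM, color on a log scale with 1 added) of the 47 matrix genes (rows) in the 14 annotated cell types (columns). The fibroblast column is brightest for 44 genes, and *Fn1*, *Thbs1* and *Vcan* are the 3 with a brighter cell elsewhere, in monocytes.

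The proteoglycans held the most abundant member. *Dcn*, encoding decorin, a small leucine-rich proteoglycan that binds collagen fibrils, was at 12816 CPM in fibroblasts, with hearts between 9944 and 13529 CPM. All 6 hearts were close, and no other member had so small a ratio of its highest to its lowest heart. *Lum* (lumican) and *Bgn* (biglycan), of the same family, were at 2453 and 2010 CPM, *Ogn* (osteoglycin) was at 797 CPM and *Aspn* (asporin) at 429 CPM. *Vcan* (versican, a large hyaluronan-binding proteoglycan) was at 313 CPM, and *Fmod* (fibromodulin) was the lowest member of all at 28.7 CPM, with 93 UMIs in the whole experiment.

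The 6 fibrillar collagen genes ranged from 208 to 3584 CPM in fibroblasts. Both chains of type I collagen, *Col1a2* at 3584 CPM and *Col1a1* at 2518 CPM, and *Col3a1* at 3245 CPM stood well above the type V chains, which help to set fibril diameter. *Col5a2*, *Col5a1* and *Col5a3* were at 510, 475 and 208 CPM. The other collagens reached 754 CPM (*Col6a1*, a chain of beaded-filament type VI collagen). *Col6a2* and *Col6a3*, the partner chains, were at 687 and 642 CPM, *Col14a1*, which associates with fibrils, was at 552 CPM, *Col8a1* was at 404 CPM and *Col12a1* was at 49.4 CPM.

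Elastic fiber genes were led by *Eln* (elastin) at 1078 CPM, followed by *Mfap4* at 613, *Fbn1* (fibrillin-1, the microfibril scaffold) at 519 and *Mfap5* at 408 CPM. Among the glycoproteins, *Sparc*, a collagen-binding matricellular protein, was highest at 2592 CPM and *Fbln1* (fibulin-1) followed at 1355 CPM. *Sparcl1*, *Thbs1* (thrombospondin-1), *Postn* (periostin), *Fn1* (fibronectin) and *Fbln2* lay between 834 and 912 CPM. *Thbs2* was at 238 CPM, and *Tnc* (tenascin-C), often taken as an injury marker, was at only 34.1 CPM. Of the genes that process collagen, *Serpinh1*, the collagen chaperone HSP47, was at 1261 CPM, the cross-linking oxidases *Loxl1*, *Lox* and *Loxl2* were at 557, 215 and 171 CPM, and *Pcolce*, which enhances procollagen cleavage, was at 191 CPM.

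The 10 basement membrane genes ranged from 34.8 CPM for *Col18a1* to 937 CPM for *Hspg2*, the gene of perlecan. *Col15a1* was at 837 CPM, *Col4a1* at 812 CPM and its partner chain *Col4a2* at 275 CPM. Among laminin chains *Lamc1*, the gamma chain shared by many laminins, was at 649 CPM and *Lama2*, *Lamb1* and *Lama4* were at 238, 185 and 155 CPM. *Nid1* (nidogen-1, which links laminin to type IV collagen) was at 601 CPM.

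The promoters of 4 genes are shown because these genes carried the results that follow, the type IV pair that marked the cells with endothelial markers and the fibrillar genes that varied together from cell to cell. Each run is 250 bases before the first transcribed base and 50 bases from it, 5′ to 3′ on the gene's strand, from RefSeq on GRCm38.p6, and 30 of the 47 members had such an entry (35 windows). Capitals mark the letters CCAAT or its reverse complement ATTGG, which 37.4% of 32851 promoter windows of all genes hold, and TATAAA or its reverse complement TTTATA, which 13.6% hold. No match overlaps another in the windows shown.
Col4a1, chr8:11312777-11313076, minus strand: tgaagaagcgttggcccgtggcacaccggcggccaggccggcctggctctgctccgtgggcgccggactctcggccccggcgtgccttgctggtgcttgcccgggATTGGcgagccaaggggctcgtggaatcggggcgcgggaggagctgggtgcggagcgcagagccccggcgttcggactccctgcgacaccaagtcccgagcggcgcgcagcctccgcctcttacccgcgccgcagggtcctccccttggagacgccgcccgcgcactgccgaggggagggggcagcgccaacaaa
Col4a2, chr8:11312555-11312854, plus strand: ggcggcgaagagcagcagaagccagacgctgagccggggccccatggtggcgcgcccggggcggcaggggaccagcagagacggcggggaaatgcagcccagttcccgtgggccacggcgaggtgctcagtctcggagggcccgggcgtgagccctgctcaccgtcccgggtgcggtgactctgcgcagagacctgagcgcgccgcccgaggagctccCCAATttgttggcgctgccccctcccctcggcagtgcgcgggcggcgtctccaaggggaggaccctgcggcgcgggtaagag
Col1a2, chr6:4505368-4505667, plus strand: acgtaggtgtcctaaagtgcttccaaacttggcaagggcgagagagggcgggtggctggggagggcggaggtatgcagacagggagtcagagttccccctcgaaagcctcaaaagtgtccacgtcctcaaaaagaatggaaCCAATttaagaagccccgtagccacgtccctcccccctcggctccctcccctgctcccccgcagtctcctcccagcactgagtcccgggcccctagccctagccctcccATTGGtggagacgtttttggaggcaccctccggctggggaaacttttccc
Col3a1, chr1:45311288-45311587, plus strand: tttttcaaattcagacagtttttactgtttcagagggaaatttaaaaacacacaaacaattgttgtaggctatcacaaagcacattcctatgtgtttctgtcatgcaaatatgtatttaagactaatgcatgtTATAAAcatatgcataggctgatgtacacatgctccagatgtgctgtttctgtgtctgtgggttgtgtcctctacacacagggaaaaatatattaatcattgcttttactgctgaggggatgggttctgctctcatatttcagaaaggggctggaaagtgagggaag
*Col4a1* (chr8:11198423-11312826) and *Col4a2* (chr8:11312805-11449287) lie head to head on opposite strands. Their first bases are 21 bases apart, the annotated genes overlap, and the windows share 78 bases. The CCAAT letters began 145 bases before the first base of *Col4a1* and 32 bases before that of *Col4a2*. The *Col1a2* window held a pair of matches, 1 of them 109 bases before the start and the other at the first base. That start is chr6:4505618, and in another annotation the gene begins upstream of it, at chr6:4504814. The *Col3a1* window held no CCAAT and had TATAAA 117 bases before its start. Of the 35 member windows, 12 held CCAAT on either strand (34.3%) and 7 held TATAAA (20%), and a match is a string of letters, not a tested site.

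Outside fibroblasts most members were found at a low level that stood in a similar ratio to the fibroblast level in every type. The median member was at 0.983% of its fibroblast level in unconventional T cells, the lowest of the 13 types, and at 2.99% in cells annotated monocyte-derived dendritic cells (Mo-DCs), the highest. *Col1a1*, which lymphocytes are not known to make, averaged 77.0 CPM over NK cells and 99.6 CPM over B cells. After each cell was thinned to 1500 UMIs it had a UMI in 9.67% of NK cells and 13.6% of B cells, against 63.7% of fibroblasts. Without thinning these shares were 17.9%, 21.7% and 81.1%, at median depths of 2712, 2292 and 5790 UMIs per cell. *Dcn* followed the same pattern, at 182 CPM in B cells and 159 CPM in NK cells. The source of these UMIs in cells not known to make the genes was not tested. A member in a non-stromal type is best read beside these levels.

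*Lamc1* departed from that common ratio in lymphocytes. Its level was 75.1 CPM in Treg, 66.8 CPM in B cells, 51.7 CPM in Trm-like and 39.9 CPM in Tem/eff cells, but 17.6 CPM in NK cells and 14.2 CPM in Tn cells. The 6 hearts lay between 42.9 and 110 CPM in Treg and between 14.4 and 26.8 CPM in NK cells, so these ranges did not overlap. After thinning, 9.89% of Treg and 3.22% of NK cells had a *Lamc1* UMI, at similar median depths (2860 UMIs per Treg and 2712 per NK cell). As a percentage of the fibroblast level, *Lamc1* was over 3 times the median member in B cells, Tem/eff, Treg, Trm-like and unconventional T cells. Among lymphocytes *Thbs1* was so in B, NK, Tem/eff, Tn, Treg and Trm-like cells, and *Fn1* in NK, Tcm, Tn, Treg and Trm-like cells. *Tnc*, *Col18a1* and *Col12a1*, which were low in fibroblasts, passed that limit in several lymphocyte types too, as did *Loxl2* in B and Tcm cells and *Lox* in Treg.

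*Fn1* and *Thbs1* stood out in monocytes, macrophages and Mo-DCs, and *Vcan* in monocytes and, at a lower level, in macrophages. Fibronectin bridges cells and collagen through integrins, thrombospondin-1 is a matricellular protein that can activate latent TGF-β, and versican is made by monocytes as well as by stroma. *Thbs1* (chr2:118111876-118127133) was at 1756 CPM in monocytes, 1380 CPM in Mo-DCs and 997 CPM in macrophages, against 898 CPM in fibroblasts. *Fn1* (chr1:71585520-71653200) was at 991 CPM in monocytes and 769 CPM in macrophages, against 840 CPM in fibroblasts. *Vcan* (chr13:89655312-89742509) was at 318 CPM in monocytes, 313 CPM in fibroblasts and 53.5 CPM in macrophages. As a percentage of the fibroblast level, macrophage *Vcan* was over 3 times the median member. For *Fn1* the order of monocytes, fibroblasts and macrophages did not exceed the spread, since hearts ranged from 822 to 1206, 554 to 1196 and 425 to 2459 CPM. For *Thbs1* monocytes ranged from 1223 to 3620 CPM and fibroblasts from 328 to 1260 CPM, which overlapped slightly.

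In monocytes these 3 genes were far above their level in lymphocytes. In cDCs they were not, at 59.2 CPM for *Fn1*, 58.3 CPM for *Thbs1* and 4.64 CPM for *Vcan*, beside 63.6, 84.4 and 10.3 CPM in NK cells. After thinning, *Fn1* had a UMI in 58.4% of monocytes, 31.2% of macrophages and 44.0% of fibroblasts, and in 3.75% of NKT cells and 9.02% of NK cells. The share for *Thbs1* was 62.3% of monocytes and 11.4% of NK cells, and for *Vcan* 25.3% of monocytes and 1.40% of NK cells. In the cells annotated unconventional T cells, *Fn1* was at 452 CPM and *Thbs1* at 709 CPM. Those 83 cells had 5.06 of 9 macrophage markers per cell on average, as many as the 4.95 in annotated macrophages, and a median of 10175 UMIs, and the part of these in both levels was not tested. All 9 markers summed to 3113 CPM there, against 5467 CPM in macrophages and 98.5 CPM in NKT cells.

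**Figure D2:**
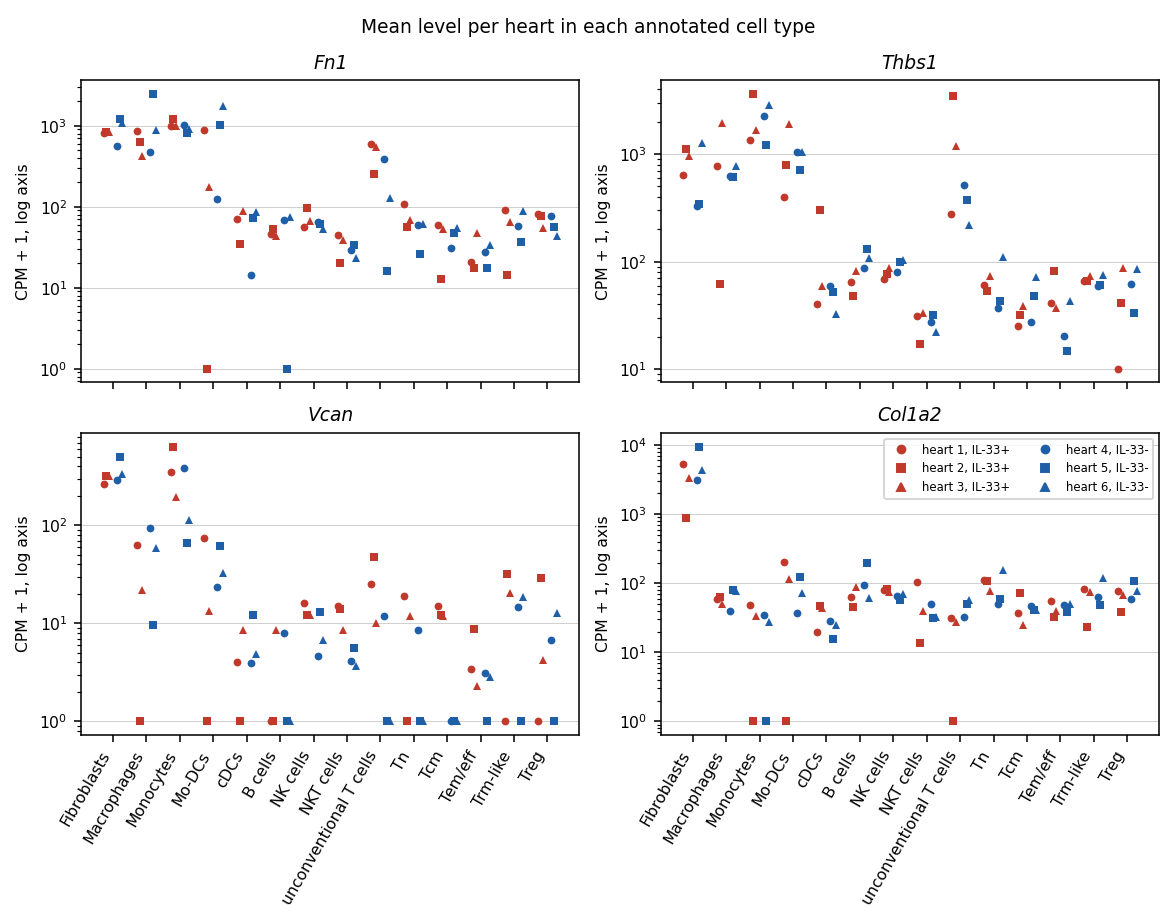
Mean level per heart (CPM with 1 added, log axis) of *Fn1*, *Thbs1*, *Vcan* and, for contrast, *Col1a2* in each annotated type, with 1 point per heart (red, hearts 1 to 3, labelled IL-33+ and blue, hearts 4 to 6, labelled IL-33-). *Fn1* and *Thbs1* reach the fibroblast range in macrophages and monocytes, whereas *Col1a2* outside fibroblasts stays at or below 202 CPM in every heart and type.

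The cells annotated fibroblasts were not of 1 kind, and the matrix genes differed between them. By a rule on markers that are not matrix members (a UMI in at least 3 of 13 endothelial markers and more endothelial than fibroblast markers), 66 of the 375 cells (17.6%) were classed as bearing endothelial markers. These 66 cells had 8.88 endothelial and 1.76 fibroblast markers per cell, and the other 309 had 0.939 and 8.94. The class is a range cut from a count, and 77 cells had 2 or 3 endothelial markers, next to the limit. It held 6 of 34, 2 of 6 and 48 of 270 cells in hearts 1, 2 and 3 and 8 of 31, 0 of 4 and 2 of 30 cells in hearts 4, 5 and 6. Median depth was 5793 UMIs in the class and 5776 in the rest.

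In the class with endothelial markers, the members summed to 12324 CPM, against 58982 CPM in the other annotated fibroblasts. Of 47 members 43 were lower there, 22 of them at least 10-fold, and 4 were higher. The 4 were *Col4a1* (1606 against 642 CPM), *Col4a2* (712 against 181 CPM), *Col18a1* (89.6 against 23.1 CPM), all of the basement membrane, and *Sparcl1* (1049 against 883 CPM), a SPARC relative. *Col4a1* was higher in the class in 5 of the 5 hearts that held both kinds of cell, and *Col4a2* in 4 of 5. *Col18a1* and *Sparcl1* were higher in 3 of 5 hearts, so their direction was not shared by all.

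Type I collagen and decorin genes were lower in the class. *Col1a1* was at 99.9 CPM in the class and 3035 CPM in the rest, *Col1a2* at 123 and 4324 CPM and *Dcn* at 819 and 15378 CPM, and all 3 were lower in the class in each of the 5 hearts. The fold difference was 30.4 for *Col1a1*. *Ogn* had 2 UMIs in the 66 cells and 1760 in the other 309. By role, the median ratio of the rest to the class was 21.9 for the fibrillar collagens, 17.3 for elastic fiber genes, 14.4 for other collagens, 12.4 for processing and cross-linking genes, 10.9 for proteoglycans, 2.13 for glycoproteins and 1.91 for basement membrane genes. Some members were near even, among them *Fn1* (791 and 851 CPM), *Hspg2* (797 and 967 CPM) and *Lama4* (117 and 163 CPM), a laminin chain of vessel walls. The class was cut from the same cells, so no test was made.

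**Figure D3:**
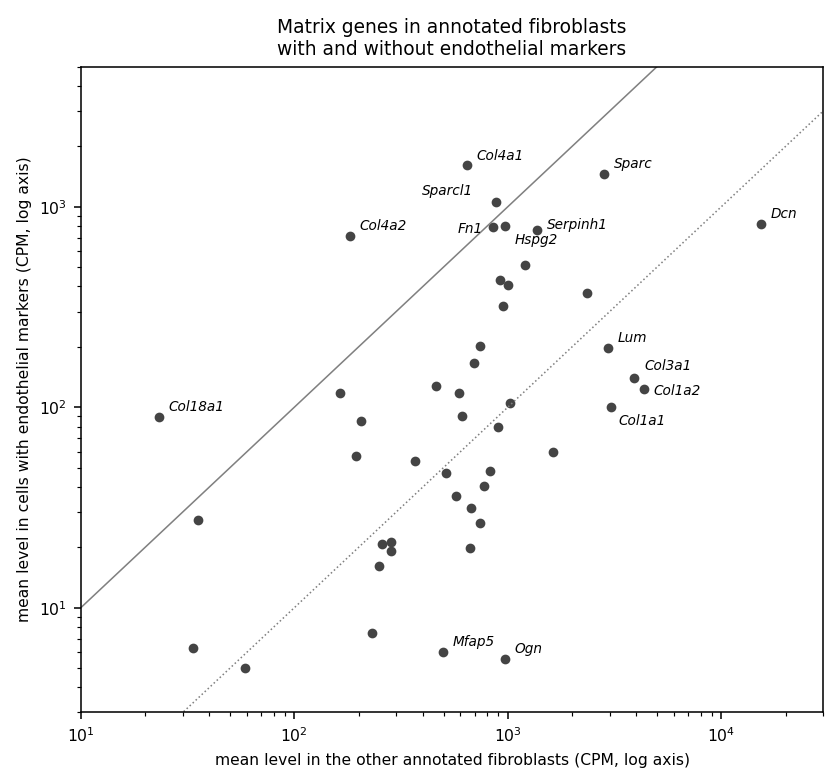
Mean level of each of the 47 matrix genes in the 66 annotated fibroblasts with endothelial markers (vertical axis, CPM, log) against the other 309 (horizontal axis, CPM, log), with 1 point per gene. The solid line marks equal levels and the dotted line a level 10-fold lower in the class, and *Col4a1*, *Col4a2*, *Col18a1* and *Sparcl1* are the 4 points above the solid line.

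Within heart 3, which held 270 annotated fibroblasts, the fibrillar collagens varied together from cell to cell. Spearman's rho over these cells was 0.87 between *Col1a1* and *Col1a2*, 0.83 between *Col1a2* and *Col3a1* and 0.68 between *Col6a1* and *Col6a2*. Over all 741 pairs of the 39 members with a UMI in at least 50% of the cells, the median rho was 0.27 and the range was -0.29 to 0.87. Without the cells with endothelial markers (222 cells, a step added after the data were seen) the median was 0.16. *Col1a1* and *Col1a2* were then at 0.82, and *Col15a1* went with *Sparcl1* (0.56) and *Hspg2* (0.53). *Sparc* was at 0.76 against both *Col1a1* and *Col3a1*, where it had been at 0.66 and 0.65 over all 270 cells. The lowest pair was *Col15a1* and *Fn1* at -0.28, and *Col1a1* with *Dcn* was at -0.20. The cells share a heart, a library and their total depth, so these values describe 1 heart.

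The question for the graft groups was whether graft IL-33 goes with a different matrix program. In fibroblasts, none of the 47 members was called between hearts labelled IL-33+ and IL-33- at an adjusted p of 0.05 or less (limma on the log2(CPM + 10) scale, Benjamini-Hochberg over 10691 genes). The background was low as well, with 2 genes or 0.0187% called, and neither was a member. At an unadjusted p of 0.05 or less there were 10 members, 6 higher and 4 lower in hearts labelled IL-33+, and 3.16% of all genes tested passed that limit. Log2 fold changes of the members had a median of -0.10, with 19 above and 28 below 0, beside a median of 0.07 over all genes. The smallest adjusted p of a member was 0.998.

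The 4 members on the negative side were both type I collagen chains, *Sparc* and *Eln*, and their values depended on hearts with few cells. *Col1a1* was at 4751, 385 and 2156 CPM in fibroblasts of hearts 1, 2 and 3 and at 2293, 8674 and 3089 CPM in hearts 4, 5 and 6. The lowest value was that of heart 2, the highest that of heart 5, and the other 4 hearts of the 2 groups interleaved. The log2 fold change was -1.31 ± 0.48 (SE, n = 3 hearts per group; limma adjusted p = 0.998; exact permutation p = 0.4, two-sided). *Col1a2* was at 5318, 892 and 3313 CPM against 3097, 9467 and 4322 CPM, and its log2 fold change was -0.999 ± 0.39. *Sparc* had the same shape, with 3837, 1127 and 2393 CPM against 1944, 8048 and 3211 CPM and a log2 fold change of -0.76 ± 0.36. *Eln* was at 982, 107 and 997 CPM against 405, 1248 and 2775 CPM (-1.21 ± 0.52), with 3 UMIs in heart 2, and its highest value was that of heart 6.

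Without heart 2 alone the log2 fold change was -0.30 for *Col1a1*, -0.26 for *Col1a2*, -0.28 for *Sparc* and -0.18 for *Eln*. Without heart 5 alone it was -0.74, -0.54, -0.20 and -1.14 for the same genes, and without heart 6 that of *Eln* was -0.57. Without both hearts 2 and 5, which held under 10 fibroblasts each, the collagens and *Sparc* turned and *Eln* did not. The log2 fold change of *Col1a1* became 0.27, that of *Col1a2* 0.20 and that of *Sparc* 0.28, and *Eln* moved to -0.11. Of the 47 members 37 were then above 0 and 10 below, 22 had changed sign, and the median was 0.21 beside 0.01 over all genes. All 6 fibrillar collagens were then above 0, whereas 5 of 6 were below 0 with every heart in. No member was called in that fit, where 11 of 10506 genes were. Without the cells with endothelial markers the members' median was -0.05, and 22 were above and 25 below 0. *Col1a1* was called there (log2 fold change -1.10, limma adjusted p = 0.0318), as 1 of 13 genes called among 10053. Leaving out heart 1 gave 3 calls among the members, all lower in hearts labelled IL-33+. These were *Col1a1* (-2.10, limma adjusted p = 2.24e-07), *Col1a2* (-1.54, 0.00136) and *Eln* (-1.73, 0.000919). How many of all genes were called without heart 1 is not given here. In both of those fits limma took the spread wholly from the trend over genes, with infinite prior degrees of freedom, and hearts 2 and 5 were still in them.

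Of the 6 members on the positive side 4 were basement membrane genes, and the others were *Ogn* and *Thbs1* (both 0.74). With both a fold of at least 2 and p at or under 0.05 before adjustment, 1 member was higher in hearts labelled IL-33+ (*Lamb1*), where 1.81% of genes were, and 2 were lower (*Col1a1* and *Eln*), where 0.87% were. In *Hspg2*, *Col4a2*, *Col4a1*, *Lamb1* and *Sparcl1*, which made 5 members, every heart labelled IL-33+ was above every heart labelled IL-33-, as in 4.85% of all genes tested. *Fbn1* was the 1 member with every heart labelled IL-33+ lower, as were 3.13% of genes, and apart from *Lamb1* these were named after their values were seen.

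*Hspg2* was at 1052, 1366 and 971 CPM in hearts 1, 2 and 3 and at 695, 422 and 725 CPM in hearts 4, 5 and 6 (log2 fold change 0.89 ± 0.29, SE). *Col4a1* was at 1284, 819 and 802 CPM against 599, 450 and 628 CPM (0.76 ± 0.29), and *Col4a2* at 507, 307 and 273 CPM against 147, 207 and 163 CPM (0.99 ± 0.36). All 3 had an exact permutation p of 0.1, the smallest that 3 hearts against 3 allow, and a limma adjusted p of 0.998. *Lamb1*, the beta chain of many laminins, was at 215, 638 and 183 CPM against 111, 140 and 162 CPM (1.05 ± 0.41), and its highest value came from 13 UMIs in the 6 cells of heart 2. *Sparcl1* was at 1071, 910 and 926 CPM against 850, 448 and 735 CPM (0.56 ± 0.29). As their groups did not overlap, leaving out hearts could not turn the direction of these 5. Without hearts 2 and 5 the values were 0.50 for *Hspg2*, 0.72 for *Col4a1*, 1.21 for *Col4a2*, 0.53 for *Lamb1* and 0.33 for *Sparcl1*.

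The share of cells with endothelial markers differed between hearts, and *Col4a1*, *Col4a2* and *Sparcl1* were higher in those cells. That share was 17.6, 33.3 and 17.8% in hearts 1, 2 and 3 and 25.8, 0 and 6.67% in hearts 4, 5 and 6. The 13 endothelial markers summed to 2440, 1837 and 1949 CPM against 3420, 119 and 797 CPM. The part of the cells with endothelial markers in the differences between the groups was not tested. In the annotated fibroblasts without the class, *Col4a1* was at 774, 520 and 661 CPM against 429, 450 and 575 CPM. *Col4a2* was at 183, 318 and 198 CPM against 55.3, 207 and 127 CPM, and *Sparcl1* at 854, 565 and 934 CPM against 714, 448 and 751 CPM. The groups then overlapped for each of these genes, and the log2 fold changes were 0.41, 0.92 and 0.30. In those cells 3 members had groups that did not overlap, *Hspg2*, *Lamb1* and *Ogn*, each higher in hearts labelled IL-33+ (3.77% of 10053 genes), and no member was lower in all of them. *Fn1* moved from -0.11 in all annotated fibroblasts to -1.09 in those cells (limma adjusted p = 0.301), where heart 2 had 3 *Fn1* UMIs in its remaining 4 cells (115 CPM).

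**Figure D4:**
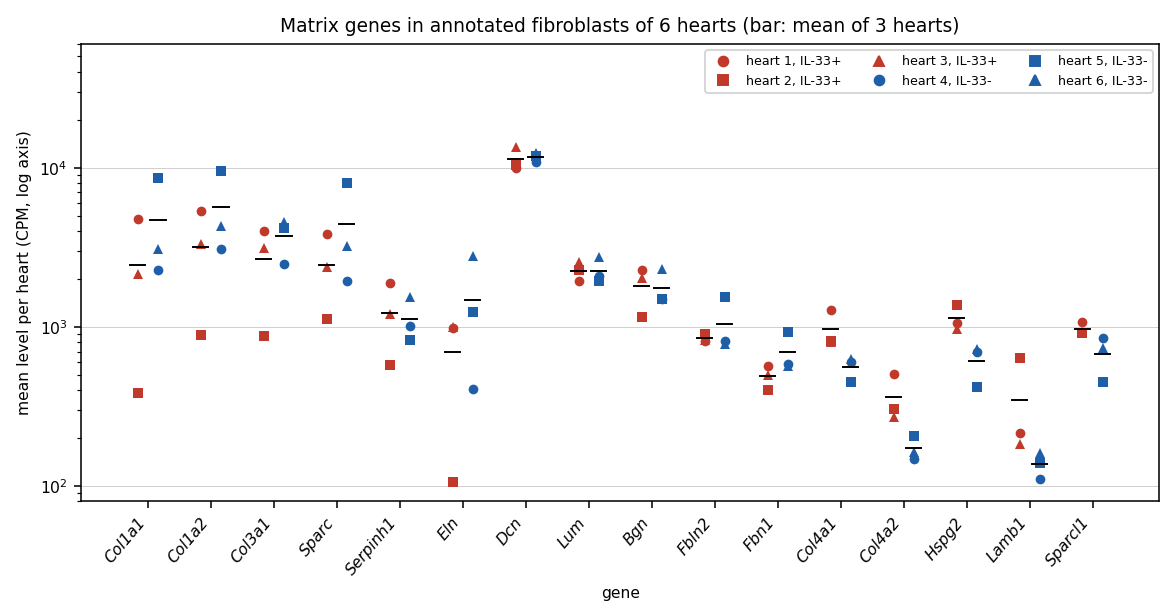
Mean level per heart in annotated fibroblasts (CPM, log axis) of 16 matrix genes, with red points for hearts 1 to 3 (labelled IL-33+), blue points for hearts 4 to 6 (labelled IL-33-) and black bars for the mean of 3 hearts. The square symbols of hearts 2 and 5, from 6 and 4 cells, form the extremes for *Col1a1*, *Col1a2* and *Sparc*, while the red and blue points do not overlap for *Fbn1*, *Col4a1*, *Col4a2*, *Hspg2*, *Lamb1* and *Sparcl1*.

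*Dcn*, *Lum*, *Bgn* and *Serpinh1*, also abundant, had fold changes near 0. *Dcn* was at 9944, 10422 and 13529 CPM in hearts 1, 2 and 3 and at 10793, 11775 and 12362 CPM in hearts 4, 5 and 6, with a log2 fold change of -0.05 ± 0.23. *Lum* had a log2 fold change of 0.00 ± 0.25, *Bgn* 0.02 ± 0.28, *Serpinh1* 0.02 ± 0.32 and *Fbln2* -0.22 ± 0.29. *Col3a1*, at 4003, 877 and 3129 CPM against 2499, 4151 and 4553 CPM, was at -0.70 ± 0.34. *Fbn1* was at 567, 404 and 497 CPM against 581, 931 and 568 CPM (-0.47 ± 0.30), a gap of less than 1 CPM between heart 1 and heart 6. By role, the median log2 fold change ranged from -0.58 for the fibrillar collagens to 0.18 for the basement membrane genes with every heart in, and from -0.10 for elastic fiber genes to 0.49 for processing and cross-linking genes without hearts 2 and 5.

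**Figure D5:**
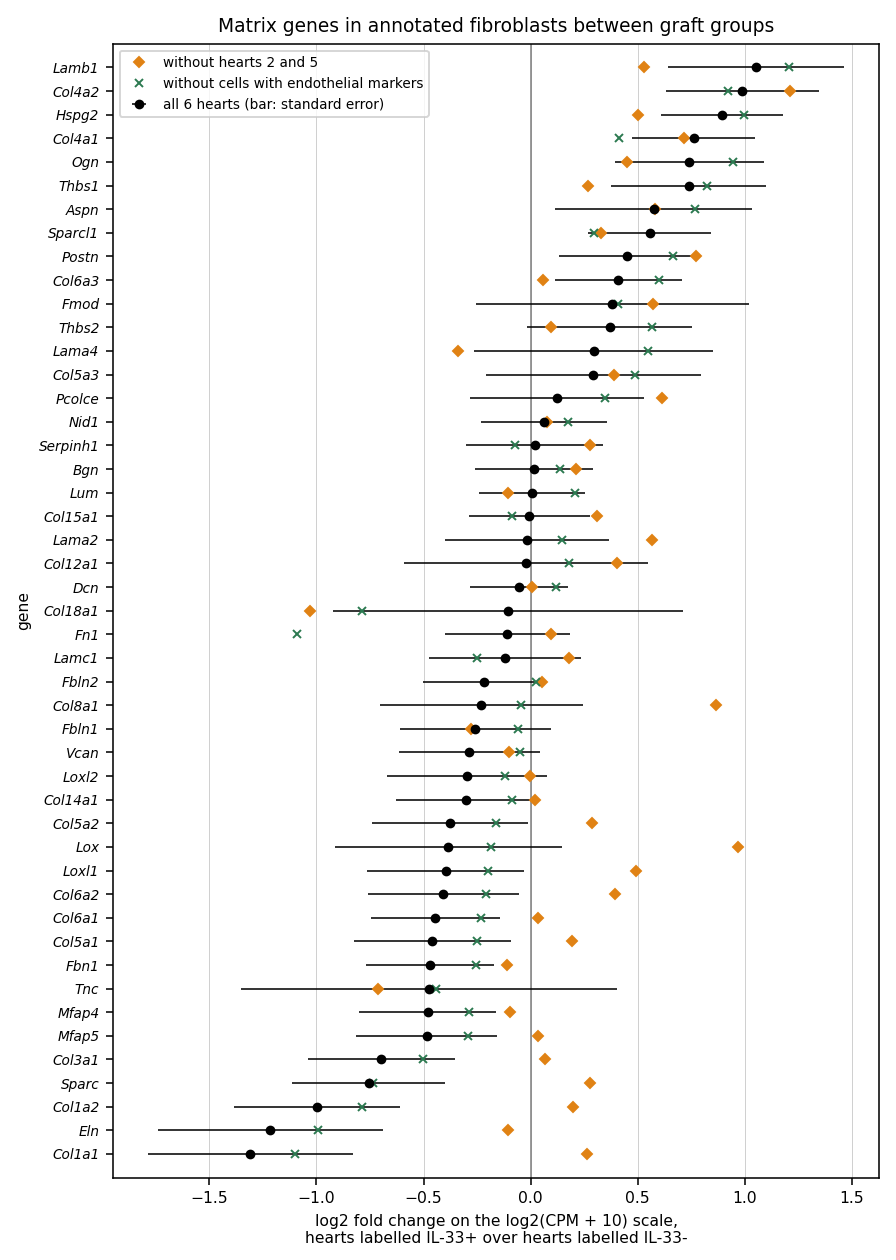
Log2 fold change of each of the 47 matrix genes in annotated fibroblasts, hearts labelled IL-33+ over hearts labelled IL-33-, on the log2(CPM + 10) scale. Black points with standard error bars use 6 hearts, orange diamonds leave out hearts 2 and 5, green crosses leave out cells with endothelial markers, and 22 of the orange diamonds lie on the other side of 0 from their black point.

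Genes that work with the members lay more often above 0 than below, as did all genes tested (5914 above and 4777 below). The members lay more often below with every heart in, but 37 lay above 0 and 10 below without hearts 2 and 5. The lists of related genes were not fitted without those hearts. Of 33 genes of collagen modification, folding, export and cleavage, 30 were tested in fibroblasts, 17 lay above and 13 below 0 with a median of 0.11, and none was called. At an unadjusted p of 0.05 or less 4 were higher and 2 lower in hearts labelled IL-33+. *Plod1*, a collagen lysyl hydroxylase, was at 117, 162 and 68.6 CPM against 65.7, 0 and 34.4 CPM (log2 fold change 1.89 ± 0.65), and *Bmp1*, the procollagen C-proteinase, was at 183, 59.97 and 205 CPM against 239, 412 and 206 CPM (-0.99 ± 0.42). The 0 for *Plod1* came from the 4 cells of heart 5. Of 15 myofibroblast genes 13 were tested, 11 lay above and 2 below 0, none was called, and the median was 0.50. *Ccn2*, a TGF-β target also called CTGF, was the 1 of them at an unadjusted p of 0.05 or less, with 1091, 409 and 830 CPM against 327, 301.6 and 650 CPM (0.83 ± 0.34), and *Acta2*, encoding α-smooth muscle actin, was at 32.7, 318 and 144 CPM against 136, 0 and 118 CPM (1.17 ± 0.72). The 0 for *Acta2* also came from the 4 cells of heart 5, where *Tagln*, *Tpm2* and *Myl9* were at 0 CPM too. *Tagln* was at 16.3, 269 and 101 CPM against 145, 0 and 145 CPM (0.59 ± 0.77). How far the myofibroblast fold changes rest on heart 5 was not tested.

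In macrophages 39 members passed the filter on low values and none was called, nor was any of 9683 genes (0% called; 391 genes were at an unadjusted p of 0.05 or less). The log2 fold changes of the 39 lay above 0 for 12 and below 0 for 27, with a median of -0.21 beside -0.05 over all genes. *Thbs1* and *Fn1* were the members highest in macrophages. *Fn1* was at 856, 623 and 425 CPM in hearts 1, 2 and 3 and at 470, 2459 and 885 CPM in hearts 4, 5 and 6. Heart 5 was highest and the groups overlapped (-0.72 ± 0.38; limma adjusted p = 0.987), and without heart 5 the value was -0.08. *Thbs1* was at 779, 61.4 and 1958 CPM against 622, 606 and 775 CPM (-0.49 ± 0.67), and its direction depended on heart 2, with 3 UMIs in 10 macrophages, since without that heart it was 0.89.

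*Vcan*, below the 50 CPM limit by the mean over hearts, was at 62.3, 0 and 21.1 CPM against 93.2, 8.54 and 57.2 CPM in macrophages, and the groups overlapped (-0.84 ± 0.65). *Dcn* was at 113, 111 and 177 CPM against 210, 384 and 179 CPM (-0.85 ± 0.30), all hearts labelled IL-33+ below the others, though by under 2 CPM between hearts 3 and 6. *Col1a2* and *Col3a1* had log2 fold changes of -0.12 ± 0.36 and -0.23 ± 0.37. *Sparc* was higher in every heart labelled IL-33+ (3.82% of genes were), *Dcn* and *Col4a1* lower (5.15% were), and the 1 member past 2-fold at an unadjusted p of 0.05 or less was *Ogn*, at 3.18, 0 and 6.85 CPM against 21.7, 41.7 and 6.76 CPM (-1.21 ± 0.48), lower, where 1.19% of genes were, with none higher, where 0.744% were. *Vcan*, *Sparc* and *Col4a1* were named after their values were seen.

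In monocytes 16 members were tested and none was called, with 0.014% of 7123 genes called. *Vcan* was the 1 of them past 2-fold at an unadjusted p of 0.05 or less and was higher in hearts labelled IL-33+, where 1.81% of genes were, with no member lower, where 1.87% of genes were. It was at 348, 632 and 192 CPM in hearts 1, 2 and 3 and at 381, 65.8 and 114 CPM in hearts 4, 5 and 6 (log2 fold change 1.22 ± 0.40; limma adjusted p = 0.855). Heart 4 lay within the range of the hearts labelled IL-33+, and the low value of heart 5 came from 3 UMIs in 7 cells. Without heart 3 *Vcan* was called (1.64, limma adjusted p = 0.0103), and the count of all genes called in that fit is not given here. *Fn1* (0.22 ± 0.21) and *Thbs1* (0.02 ± 0.24) were close between the groups, and *Dcn* was at 75.9, 166 and 122 CPM against 63.9, 29.95 and 71.9 CPM (1.01 ± 0.52), every heart labelled IL-33+ above the others, as in 4.91% of genes, and each heart was below the 182 CPM of B cells. In the 11 other annotated types as 1 set 0.00817% of 85681 gene tests were called, and none was of a member. The member nearest to a call was *Fn1* in Mo-DCs, at 871, 0 and 172 CPM in hearts 1, 2 and 3 and 124, 1025 and 1765 CPM in hearts 4, 5 and 6 (log2 fold change -2.42 ± 0.60; limma adjusted p = 0.0576), named after its value was seen. The groups overlapped, and the 0 came from 4 cells of heart 2. The exact permutation p of *Fn1* in Mo-DCs was 0.4 (two-sided), and the prior degrees of freedom were infinite in that limma fit as well.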

How the data were processed

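Cells of 6 grafts were hashtagged, pooled and sequenced as 1 library for 3′ gene expression. The authors processed it with Cell Ranger and Partek Flow (10.0.23.0425), filtered cells on counts, genes and mitochondrial share, which also served as their doublet filter, and annotated cell types. The deposited values are log2(CPM + 1) per cell, and a second deposited table gives each cell's hashtag, graft group and annotated type. UMIs were recovered from the smallest step of each cell's values, and 99.9% of low values came out whole within 0.05. No barcode occurred more than once. Levels are means of CPM over cells. In each type the mean CPM per heart was compared as log2(CPM + 10) with limma 3.58.1 in R 4.3.3, with a trend on mean level, for genes with at least 10 UMIs and a UMI in at least 3 hearts, and p-values were adjusted by Benjamini-Hochberg over all genes tested. The fold is hearts labelled IL-33+ over hearts labelled IL-33-, on the log2(CPM + 10) scale, which understates changes of low genes. Exact permutation tests were two-sided. For shares of cells with a UMI, cells were thinned to 1500 UMIs, and all cells reached that depth. Depth was 908139 to 7012940 UMIs per heart, and counting error alone is smallest in heart 3. Nothing in the labels says more of the replicates than that each is a separate heart.

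Fold changes were named in fibroblasts for the 10 members of highest mean over hearts and for members past 2-fold at an unadjusted p of 0.05 or less, in macrophages and monocytes for members of at least 50 CPM, and in any type for members called. The members, their roles, the lists of related genes and the markers were chosen with earlier results of these data known. The fit was tested on simulated data. The alternatives were another pseudocount, no filter, summed UMIs per heart, limma-voom, centred hearts, leaving out each heart, hearts with few cells or the cells with endothelial markers.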

Additional observations from a re-analysis of the deposited data

Results flagged for a closer look

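*Col4a1* and *Dcn* had fold changes of opposite sign between the same hearts in different cell types, and none of these was called. *Col4a1* had a log2 fold change of 0.76 in fibroblasts, where every heart labelled IL-33+ was above every heart labelled IL-33-, and of -0.42 in macrophages, where every one was below. *Dcn* had a log2 fold change of 1.01 in monocytes and -0.85 in macrophages, again with hearts that did not overlap in either type. In fibroblasts 4.85% and in monocytes 4.91% of genes had every heart labelled IL-33+ higher, and in macrophages 5.15% had every one lower. The difference between the types was not tested for either gene. In macrophages *Col4a1* was at 20.4 to 48.9 CPM, against 450 to 1284 CPM in fibroblasts, and *Dcn* in monocytes came from 1 to 45 UMIs per heart. *Dcn* in NK and B cells, which are not known to make it, was at 159 and 182 CPM.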

How the results depend on the processing

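Of 432 values recomputed under an alternative, 364 were classed as the same, 40 changed direction and 23 were counts or medians that moved. A further 5 passed a threshold that the reported value did not. The same means an unchanged direction and side of the threshold for a fold change, and little or no move for a count or median. Of 28 fold changes followed, 15 kept their direction in every alternative run. Some of the 28 were followed because their groups did not overlap, and leaving out hearts could not turn those. No paired analysis was possible because the hearts are numbered 1 to 6 and nothing pairs a heart of 1 group with a heart of the other, so the planned replicate block was not run. Causes of the changes below were not tested unless stated.

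Counts of members at least 2-fold higher or lower also need an unadjusted p of 0.05 or less. In fibroblasts without the cells with endothelial markers, members called rose from 0 to 1 and all genes called from 2 to 13. Members called in fibroblasts ranged from 0 to 3 when each heart was left out. Members at least 2-fold higher numbered 1 as reported, 0 with a pseudocount of 50 CPM, with limma-voom or with centred hearts, 2 with summed UMIs, and 1 to 4 with a heart left out. Members at least 2-fold lower numbered 2 as reported, 0 with no filter or with limma-voom, 1 without hearts under 10 cells, and 0 to 5 with a heart left out. With no filter the fold changes of *Col1a1* and *Eln* stayed at -1.31 and -1.21, and their unadjusted limma p-values became 0.156 and 0.213. In macrophages the members at least 2-fold lower numbered 1 as reported, 0 with a pseudocount of 50 CPM or no filter, 2 with limma-voom, and 1 to 3 with a heart left out. The members' median log2 fold change in fibroblasts ranged from -0.20 to 0.14 with a heart left out. The median correlation over cells moved from 0.27 to 0.16 without the cells with endothelial markers, an alternative chosen after seeing the data.

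Directions turned for fibroblast *Lum* (-0.20 with summed UMIs, -0.054 with limma-voom, -0.077 centred, -0.11 without hearts under 10 cells), and for *Bgn* (-0.066) and *Serpinh1* (-0.064) when centred. Without hearts under 10 cells they turned for *Dcn* (0.0059), *Col1a2* (0.20), *Col1a1* (0.27), *Sparc* (0.28), *Col3a1* (0.069) and *Fbln2* (0.053), and for monocyte *Thbs1* (-0.75). Without the cells with endothelial markers they turned for *Dcn* (0.12), *Serpinh1* (-0.072) and *Fbln2* (0.026). With limma-voom they turned for macrophage *Col1a2* (0.19), *Col3a1* (0.033) and *Thbs1* (0.28) and for monocyte *Thbs1* (-0.47). With a heart left out the ranges crossed 0 in fibroblasts for *Bgn* (-0.17 to 0.32), *Dcn* (-0.19 to 0.031), *Lum* (-0.10 to 0.15), *Serpinh1* (-0.37 to 0.48) and *Fbln2* (-0.39 to 0.10), in macrophages for *Col1a2* (-0.41 to 0.026), *Col3a1* (-0.40 to 0.047) and *Thbs1* (-1.51 to 0.89), and in monocytes for *Thbs1* (-0.40 to 0.30). Hearts 2 and 5, with 6 and 4 fibroblasts, limit every fibroblast comparison.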
